A study of Mus musculus with 48 samples.

Results

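The genes described here are the 9 core factors of nonsense-mediated mRNA decay (NMD) that the study's count table lists under the symbols Upf1, Upf2, Upf3a, Upf3b, Smg1, Smg5, Smg6, Smg8 and Smg9. They were taken by symbol from the 20171 genes of the table, and all 9 were found and passed the filter on low counts in every comparison. The study sequenced total RNA of cleared lysates (inputs) from mouse embryonic stem cells and the RNA recovered from those lysates on magnetic beads that carry an HA antibody (immunoprecipitates, IP). Tnrc6a, the bait, is a GW182 protein that binds Argonaute proteins and recruits deadenylases in microRNA silencing. The questions asked of the 9 genes were whether their mRNAs were higher in lysates of cells labelled Upf1-/-, and whether the mRNAs were recovered with Tnrc6a.

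All cells were 129S6/SvEvTac embryonic stem cells with a GFP_5xT71BS reporter and a stably transfected FLAG-Cas9 transgene. The labels give 4 genotypes. By the labels, untagged cells carry no further allele, HA-Tnrc6a cells carry the HA-AVI-Tnrc6a allele, and the others are HA-AVI-Tnrc6a cells labelled Ago2-/- or Upf1-/-. Untagged cells have no HA epitope on Tnrc6a, so their IP measures what the beads bind without the bait. Each of the 8 combinations of genotype and fraction had 6 libraries, 48 in all. The labels name 2 experiments of 3 libraries each, but the columns of the table are numbered 1 to 6 within a genotype and fraction. Libraries numbered 1 to 3 (the first set) and 4 to 6 (the second set) were therefore kept apart in every model, without assigning them to an experiment. Cultures were grown in triplicate dishes, and the labels do not say how many clones stand behind a genotype, so p-values measure the spread between dishes.

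NMD is the pathway that degrades mRNAs on which translation ends too early or far from the poly(A) tail. The RNA helicase Upf1 binds the terminating ribosome, and Upf2 with Upf3a or Upf3b links it to the exon junction complexes left downstream by splicing. The kinase Smg1, held in check by Smg8 and Smg9, then phosphorylates Upf1, and phosphorylated Upf1 is bound by the endonuclease Smg6 and by Smg5, which lead to cleavage, decapping and deadenylation. Several NMD factors are themselves encoded by NMD-sensitive mRNAs, and this feedback loop was described in mammalian cells before.

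Upf1 lies at chr8:70331493-70353423, Upf2 at chr2:5951447-6056703, Upf3a at chr8:13785055-13798723 and Upf3b at chrX:37091678-37110471 in RefSeq's annotation of GRCm38.p6. Smg1 lies at chr7:118131308-118244437, Smg8 at chr11:87077732-87086777 and Smg9 at chr7:24397517-24422777. Smg5 lies at chr3:88336259-88362338 and Smg6 at chr11:74925854-75164448. The submitters' processing notes name the same build as GRCm38 and mm10. Upf1 overlaps Gdf1 and Cers1, Upf3a overlaps 1 other annotated gene, Smg1 overlaps 3 and Smg6 overlaps 6, Srr and Hic1 among them. Whether the counting used strand is not given in the sources used here, so the values of these 4 genes are uncertain to the extent that reads of their neighbours were counted with them.

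The upstream sequences of Smg5 and Smg8 are shown because Smg5 rose and Smg8 fell in Upf1-/- lysates, and because neither gene overlaps another annotated gene. Each is a window of 250 bases upstream in RefSeq GRCm38.p6, 5′ to 3′ on the gene's strand. The window is chr3:88336010-88336259 (plus strand) for Smg5 and chr11:87086778-87087027 (minus strand) for Smg8. By these positions the Smg5 window ends on the first base of its gene, and the Smg8 window ends just before its gene. Capitals mark TCGCGAGA in Smg5 and CCGGAAG in Smg8, and these marks were chosen after the sequences had been seen.
Smg5: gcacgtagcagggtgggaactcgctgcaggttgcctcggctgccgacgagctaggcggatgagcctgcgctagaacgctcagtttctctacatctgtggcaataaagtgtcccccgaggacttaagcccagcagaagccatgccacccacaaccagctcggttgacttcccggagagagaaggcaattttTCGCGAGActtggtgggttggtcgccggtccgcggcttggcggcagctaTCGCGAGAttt
Smg8: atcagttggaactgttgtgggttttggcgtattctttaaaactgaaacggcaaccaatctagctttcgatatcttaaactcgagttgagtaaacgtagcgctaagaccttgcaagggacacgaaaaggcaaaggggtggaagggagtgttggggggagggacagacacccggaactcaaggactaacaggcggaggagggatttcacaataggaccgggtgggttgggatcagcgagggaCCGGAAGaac
The window of Smg5 holds TCGCGAGA at 2 places. All 9 genes matched the RefSeq promoter table, and 8 motifs were searched on both strands in windows of this length before 32851 gene starts. TCGCGAGA was found before 2 of the 9 genes, Smg5 and Upf3b, and before 0.858% of all starts. CCGGAAG was found before 1, Smg8, and before 6.91% of all starts. The NRF1 motif was found before Upf1, Smg6 and Smg9 and in 3.74% of all windows. GGGCGG was found before 7 of the 9 genes (32.7% of all windows) and CCAAT before 4 (33.8%). TATAAA (12.4%), CACGTG (6.02%) and TGACGTCA (1.55%) were found before none of the 9. GGGCGG was absent from the windows of Smg5 and Smg8.

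Library totals ranged from 15383953 to 19595405 counts in the 12 inputs of the first set and from 26458831 to 37179105 in those of the second, and from 11471544 to 18344233 and from 25724085 to 73845953 in the IPs. Each of the 9 genes had at least 99 counts in every library. Ago2 mRNA was at 92.8 to 135.6 CPM in Ago2-/- inputs and at 205.0 to 323.4 CPM in HA-Tnrc6a inputs. CPM are counts scaled to a common total after the library totals were rescaled by TMM, edgeR's correction for differences in RNA composition. In the same comparison 15.2% of all genes were lower. A count over the whole gene does not show whether an edit is present, so this checks the Ago2 label only in part. Tnrc6a mRNA itself was recovered 219-fold over the untagged background (log2 7.77 ± 0.18, SE). Markers of embryonic stem cells (8 genes, none at 0) summed to between 6400 and 8090 CPM in every input. Libraries that stood furthest from the others of their group and set were HA-Tnrc6a input 3, Upf1-/- IP 4 and untagged IP 1.

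For Upf1 itself, the 6 Upf1-/- inputs held 122, 123 and 124 CPM in the first set and 135, 139 and 142 CPM in the second, in the order of their numbers. The HA-Tnrc6a inputs held 75.1, 74.4 and 83.3 CPM and 99.6, 96.7 and 99.2 CPM. Upf1 mRNA was therefore higher and not lower in cells labelled Upf1-/-, with no overlap in either set. The share of all genes without such overlap was not counted, here or in the comparisons below. Non-overlap is therefore given as a description of the libraries only. It rose by 0.58 ± 0.03 on the log2 scale (SE, 1.49-fold, adjusted p = 1.17e-22, edgeR's quasi-likelihood test with Benjamini-Hochberg adjustment over all genes tested). A count over the whole gene does not show whether a small edit is present, so the level of Upf1 mRNA does not check this label.

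In the lysates of Upf1-/- cells, 8 of the 9 NMD factor mRNAs were higher than in HA-Tnrc6a lysates and 1, Smg8, was lower. Over all genes tested, 29.5% were higher and 29% were lower in the same comparison, 58.6% in all. The median change of the 9 genes was 0.683 on the log2 scale, and that of all genes was -0.0175. The largest rise was that of Smg9 (2.36-fold), followed by Smg1 (1.74-fold), Smg5 (1.68-fold), Smg6 (1.66-fold), Upf2 (1.61-fold) and Upf1. Changes of Upf3a (1.15-fold) and Upf3b (1.09-fold) were small. In bulk lysates, fewer cells of a type and less RNA per cell cannot be told apart.

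Among the factors that bridge Upf1 to the exon junction, Upf2 had the largest change. Its mRNA was at 62.4 ± 3.4 and 73.7 ± 1.4 CPM in the first and second set of HA-Tnrc6a inputs (mean ± SD, n = 3 each), and at 96.1 ± 3.9 and 123.0 ± 3.5 CPM in the Upf1-/- inputs. The 2 genotypes did not overlap in either set, and Upf2 rose by 0.68 ± 0.03 on the log2 scale (SE, adjusted p = 2.24e-24). Upf3a held 42.8, 43.8 and 43.7 CPM in the first set of HA-Tnrc6a inputs and 52.4, 47.2 and 46.3 CPM in the Upf1-/- inputs beside them. In the second set it held 47.96, 49.4 and 51.9 CPM against 58.8, 60.6 and 57.2 CPM. The difference for Upf3a was 0.20 ± 0.04 (adjusted p = 2.86e-06), again without overlap within a set. Upf3b, the X-linked paralog of Upf3a, overlapped between the genotypes in the first set (57.5 to 63.5 against 59.3 to 69.9 CPM) and not in the second (51.6 to 54.0 against 57.3 to 63.6 CPM). Its change of 0.13 ± 0.04 (adjusted p = 0.00306) was 0.04 in the first set alone, where it did not pass the test (adjusted p = 0.547), and 0.21 in the second. In a single model of all 48 libraries Upf3b missed the threshold as well (0.12, adjusted p = 0.0591).

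The kinase and its regulators split. Smg1 held 83.8, 88.5 and 78.3 CPM in HA-Tnrc6a inputs and 133, 131 and 148 CPM in Upf1-/- inputs of the first set. In the second set, the values were 91.0, 101 and 82.5 CPM against 172, 155 and 175 CPM. All Upf1-/- values were above all HA-Tnrc6a values within a set, and Smg1 rose by 0.80 ± 0.06 on the log2 scale (adjusted p = 1.12e-06). Smg9, a regulator of the kinase, was at 12.0, 11.5 and 12.1 CPM in the first set of HA-Tnrc6a inputs and at 14.7, 16.3 and 14.3 CPM in the second. In Upf1-/- inputs it was at 31.7, 29.2 and 28.6 CPM and at 32.0, 32.2 and 35.6 CPM, more than any value of the other 3 genotypes. The change of Smg9 was 1.24 ± 0.05 (adjusted p = 5.81e-25), which 98.8% of the tested genes did not reach. Smg8, which forms a complex with Smg9 on the kinase, went the other way. It held 32.6, 36.3 and 35.2 CPM in HA-Tnrc6a inputs against 28.6, 30.7 and 33.6 CPM in Upf1-/- inputs of the first set, which overlap. In the second set 47.2, 48.9 and 46.6 CPM stood against 36.9, 37.4 and 36.8 CPM, which do not. Smg8 fell by 0.26 ± 0.04 on the log2 scale (adjusted p = 3.83e-07), by 0.18 in the first set and by 0.35 in the second.

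Smg5 and Smg6, which bind phosphorylated Upf1, both rose. Smg5, the most abundant of the 9 per length, held 135, 132 and 129.6 CPM in the first set of HA-Tnrc6a inputs and 232, 227 and 233 CPM in Upf1-/- inputs. The second set held 167, 165 and 168 CPM against 274, 271 and 265 CPM. Replicates lay close together and the genotypes were far apart, with a change of 0.75 ± 0.02 (adjusted p = 2.45e-30). Smg6, the endonuclease, held 45.7, 46.1 and 47.5 CPM against 74.0, 73.1 and 84.4 CPM in the first set, and 50.9, 50.5 and 49.1 CPM against 78.9, 87.3 and 82.7 CPM in the second. That is a change of 0.73 ± 0.03 (adjusted p = 4.16e-23), with no overlap in either set. The difference between the sets passed the test for none of the 9 genes in this comparison (adjusted p from 0.0985 to 0.916), against 11.6% of all genes.

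**Figure D1:**
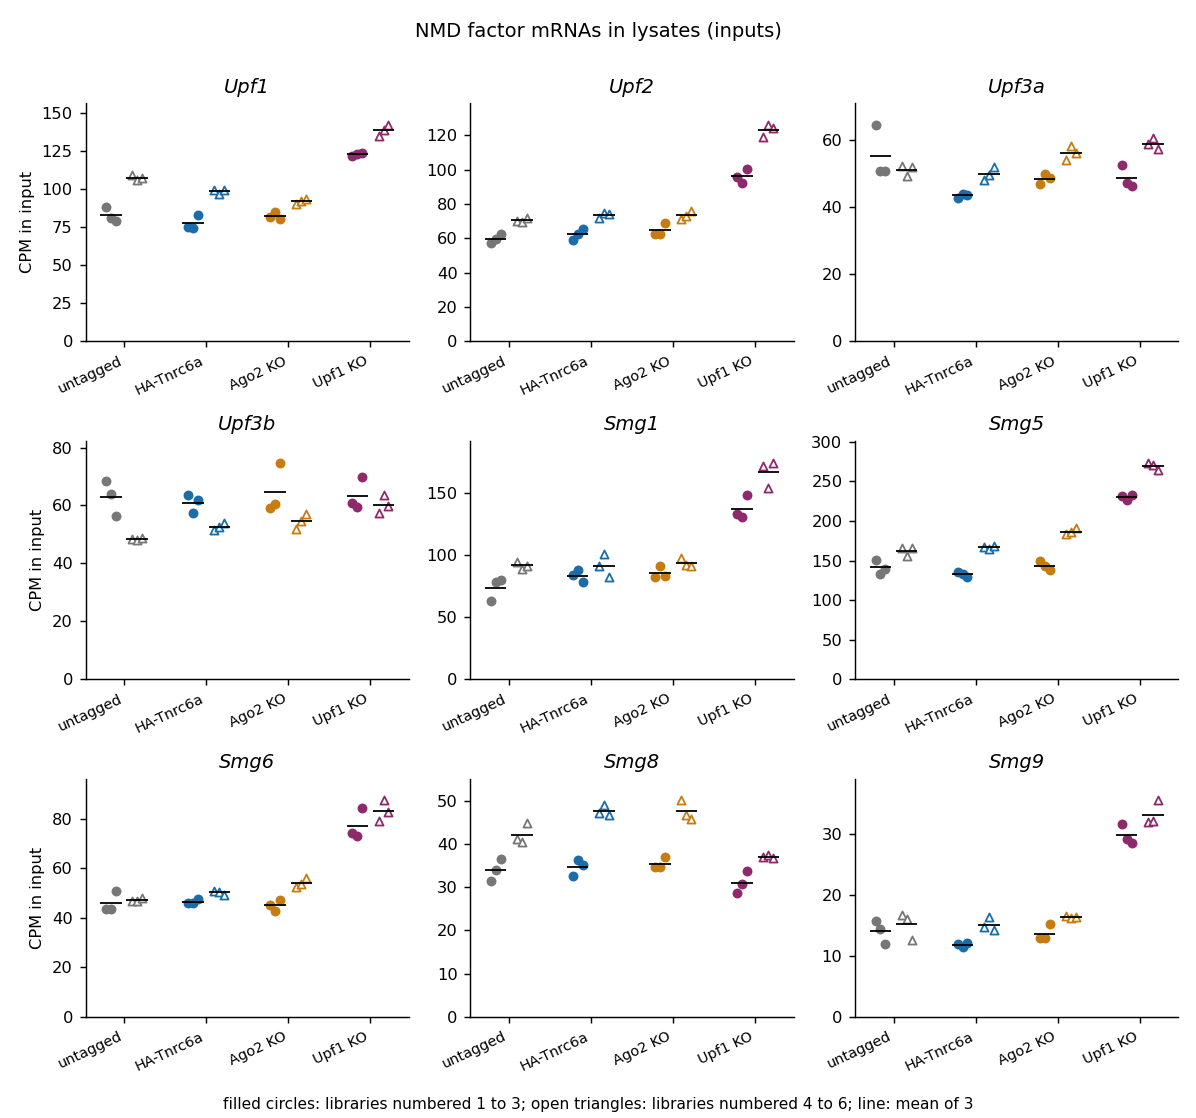
CPM of each NMD factor mRNA in every input library (y axis) by genotype (x axis), with filled circles for libraries numbered 1 to 3, open triangles for those numbered 4 to 6 and a line at the mean of 3. KO in the plots stands for the -/- genotypes. The Upf1-/- points of Smg9, Smg5, Smg6, Smg1, Upf2 and Upf1 lie above all others of their set, and their Smg8 means are the lowest of each set. The share of all genes with such a separation was not counted.

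Compared per kilobase of the deposited gene length, the order of the mRNAs was shared only in part by the sets of HA-Tnrc6a inputs. Smg5 had the highest level (19.0 and 23.9 CPM per kilobase, means of the first and second set), ahead of Upf1 (16.8 and 21.3). Upf3b (15.2 and 13.2), Upf2 (11.4 and 13.5) and Smg8 (10.8 and 14.8) came next. Their means fell in this order in the first set and in the reverse order in the second. In the first set the libraries of Upf2 and Smg8 overlapped, and in the second those of Upf2 and Upf3b did. Upf3a (7.41 and 8.49) and Smg6 (5.50 and 5.93) followed. Smg1 (3.48 and 3.82) and Smg9 (3.20 and 4.09) were lowest. Their libraries overlapped in the second set, and in the first set those of Smg9 were all below those of Smg1 by a narrow margin (at most 3.264 against at least 3.265).

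The Ago2-/- cells are the other knockout in the tagged line, with the same HA-Tnrc6a inputs as the reference. Here 3 of the 9 mRNAs were higher and none was lower, where 15.7% of all genes were higher and 15.2% lower (30.9% in all). The rises were small: 0.16 ± 0.04 for Upf3a (adjusted p = 0.000348), 0.14 ± 0.03 for Smg5 (adjusted p = 5.61e-05) and 0.16 ± 0.06 for Smg9 (adjusted p = 0.0486). Smg5 was at 137 to 149 CPM in the first set of Ago2-/- inputs and at 183 to 191 CPM in the second, above the HA-Tnrc6a libraries of each set. Fitted alone, the first set gave neither Upf3a (adjusted p = 0.0705) nor Smg5 (adjusted p = 0.0816) past the threshold. The call for Smg9 was lost when any of 8 of the 12 libraries was left out, for example Ago2-/- input 3 (0.13, adjusted p = 0.147). Averaged over the sets, Smg6 (0.03), Smg1 (0.03), Upf2 (0.02), Smg8 (0.01) and Upf1 (-0.01) differed by less than 0.05 from HA-Tnrc6a. Upf3b was at 0.07 ± 0.05 (adjusted p = 0.301). For Upf1 and Smg6 the sets had opposite signs: 0.09 and -0.10 for Upf1, and -0.05 and 0.11 for Smg6. Fitted alone, the second set put Upf1 past the threshold (-0.098, adjusted p = 0.0266).

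A direct test between the knockouts placed 6 of the 9 mRNAs higher in Upf1-/- than in Ago2-/- inputs and Smg8 lower, with 30.9% of all genes higher and 31.4% lower (62.3% in all). The differences were 1.07 ± 0.05 for Smg9, 0.76 ± 0.04 for Smg1, 0.70 ± 0.04 for Smg6, 0.66 ± 0.03 for Upf2, 0.61 ± 0.03 for Smg5, 0.58 ± 0.03 for Upf1 and -0.28 ± 0.04 for Smg8. Upf3a (0.04 ± 0.04, adjusted p = 0.38) and Upf3b (0.06 ± 0.06, adjusted p = 0.439) did not pass the test. Upf3b did when Ago2-/- input 3 was left out (0.12, adjusted p = 0.0106), and Upf3a did with library totals (0.10, adjusted p = 0.0229).

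Between HA-Tnrc6a and untagged inputs, 2 of the 9 mRNAs were lower and none was higher, where 7.67% of all genes were lower and 7.74% higher (15.4% in all). Upf3a was lower by 0.19 ± 0.05 (adjusted p = 0.00733). Untagged input 1 held 64.4 CPM of Upf3a, the other 5 untagged inputs 49.3 to 52.3 CPM and the HA-Tnrc6a inputs 42.8 to 51.9 CPM, and the change was -0.34 in the first set and -0.04 in the second. Upf1 was lower by 0.11 ± 0.04 (adjusted p = 0.0469), a call that the loss of any of 8 of the 12 libraries undid, for example HA-Tnrc6a input 2 (-0.09, adjusted p = 0.128). Smg9 (-0.12), Smg8 (0.11), Smg1 (0.09), Upf2 (0.06), Smg6 (0.06), Upf3b (0.04) and Smg5 (-0.03) did not pass the test (adjusted p from 0.13 to 0.651).

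**Figure D2:**
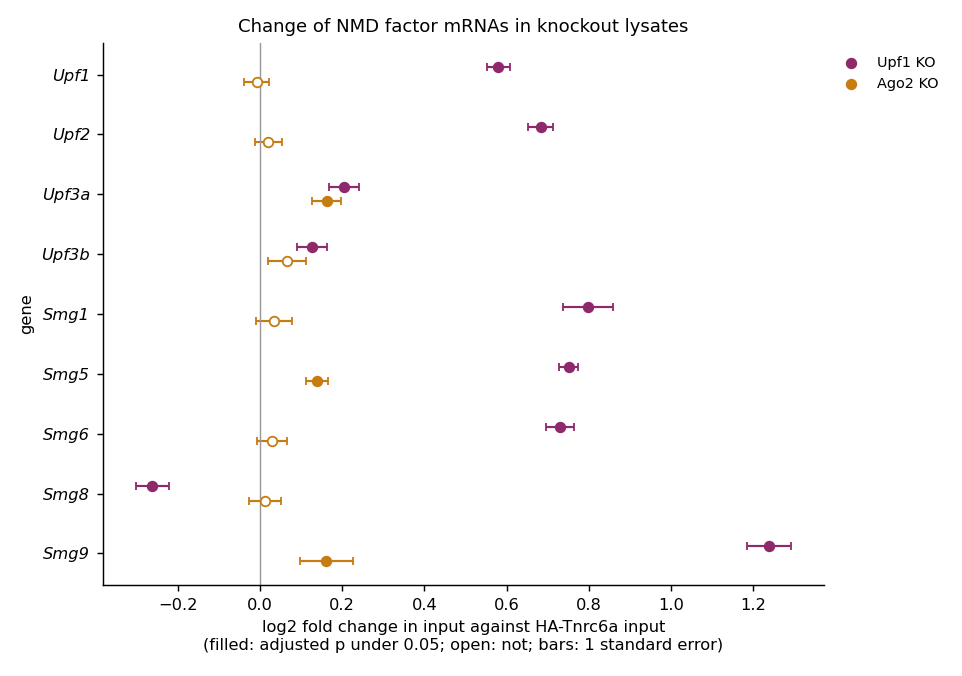
Log2 fold change of each NMD factor mRNA in Upf1-/- and Ago2-/- inputs against HA-Tnrc6a inputs (x axis), with bars of 1 standard error and filled points for an adjusted p under 0.05. Upf1-/- changes reach 1.24 for Smg9 and turn negative for Smg8 alone, whereas Ago2-/- changes stay between -0.01 and 0.16.

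Other cell types could contribute to a lysate, so their markers were summed in every input. Endoderm markers (5 genes, none at 0) summed to 8.57 to 48.6 CPM in Upf1-/- inputs, 16.5 to 24.3 CPM in HA-Tnrc6a inputs and 5.18 to 6.34 CPM in Ago2-/- inputs. Fibroblast markers (3 genes, none at 0) summed to 21.2 to 23.9 CPM in Upf1-/- inputs against 11.3 to 17.4 CPM in HA-Tnrc6a inputs, and mesoderm markers (3 genes, none at 0) to 8.41 to 16.4 CPM against 6.29 to 7.75 CPM. Neural markers (3 genes, none at 0) summed to 9.83 to 18.0 CPM against 11 to 21.9 CPM. The part of these cells in the changes of the NMD factors was not tested.

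In the rest of the NMD machinery, more genes fell than rose. Of 28 further genes, 8 were higher, 13 were lower and 7 did not pass the test in Upf1-/- inputs. Their median change was -0.0585, where 29.5% of all genes were higher and 29% lower. Genes of the list that rose include the decapping enzyme Dcp2 (0.47), the cap-binding subunit Ncbp2 (0.46) and the decapping activator Dcp1a (0.36). The largest falls were those of Magohb (-1.01) and Magoh (-0.38), both exon junction core proteins, the core helicase Eif4a3 (-0.40) and the release factor Gspt1 (-0.51). In Ago2-/- inputs, 6 of the 28 were higher and 7 lower, with a lowest change of -0.756, beside 15.7% and 15.2% of all genes. Between the knockouts directly, the lowest change in this list was -0.495. No gene of the list therefore fell as far against Ago2-/- as Magohb did against HA-Tnrc6a. Of 24 transcripts often cited as NMD-sensitive, 17 were higher and 5 lower in Upf1-/- inputs, with a median of 0.529, where 29.5% of all genes were higher and 29% lower. The change differed between the sets for 10 of these 24, against 11.6% of all genes. Zfas1 rose by 2.31, Snhg5 by 1.88, Ddit3 by 1.56 and Gadd45b by 1.46. The first pair are snoRNA host transcripts, and the second are stress-response genes. Ptbp2, a splicing regulator, fell by 0.83, and the SR protein genes Srsf2, Srsf6 and Srsf7 changed by -0.29, -0.20 and -0.15. In Ago2-/- inputs, 6 of the 24 were higher and 7 lower, with a median of -0.0127, beside 15.7% and 15.2% of all genes.

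Recovery with Tnrc6a was measured as the log2 IP-over-input ratio of tagged cells less that of untagged cells. In HA-Tnrc6a cells 6 of the 9 mRNAs were recovered less than from untagged cells, 2 were recovered slightly more and Smg1 did not pass the test. Among all genes, 32.2% were lower and 29.8% higher (62% in all), and the median was -0.0967, against -0.461 for the 9 genes. The lowest values were those of Upf3b (-0.81 ± 0.07, 0.571-fold, adjusted p = 1.44e-11) and Upf3a (-0.79 ± 0.08, 0.58-fold, adjusted p = 1.07e-10). Smg9 (-0.57 ± 0.12, adjusted p = 0.000126), Upf2 (-0.48 ± 0.08, adjusted p = 1.57e-06), Upf1 (-0.46 ± 0.07, adjusted p = 1.14e-06) and Smg8 (-0.22 ± 0.08, adjusted p = 0.0196) were also below the background. In the first set alone Smg8 was at -0.16 (adjusted p = 0.372), and in the second alone Smg9 was at -0.35 (adjusted p = 0.0546). Scaling sets the zero of this measure: with library totals in place of TMM factors, the median of all genes moved from -0.0967 to -0.254.

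In the IPs of HA-Tnrc6a cells, Upf3b was at 38.5, 43.4 and 41.3 CPM in the first set and 30.6, 31.9 and 30.7 CPM in the second. The IPs of untagged cells held 63.8, 69.1 and 62.9 CPM and 62.4, 54.9 and 55.8 CPM. The tagged IPs were lower than all untagged IPs, although the inputs of the 2 genotypes differed by only 0.04 ± 0.04 (adjusted p = 0.586). Upf3a was at 26.7 to 30.9 CPM in the 6 tagged IPs and at 54.0 to 62.6 CPM in the 6 untagged IPs. For Upf1 the sets were less alike: 51.4, 48.5 and 52.4 CPM in tagged IPs against 99.2, 91.9 and 81.0 CPM in untagged IPs of the first set, and 81.0, 93.7 and 92.2 CPM against 111, 111 and 113 CPM in the second. The within-set values of Upf1 were -0.76 and -0.16, a difference that missed the threshold (adjusted p = 0.0522).

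The small gains were those of Smg6 (0.20 ± 0.07, adjusted p = 0.0172) and Smg5 (0.17 ± 0.06, adjusted p = 0.0188). Smg5 was at 143, 139.7 and 147 CPM in the first set of tagged IPs against 143, 135 and 139.6 CPM in untagged IPs, which overlap. In the second set it was at 196, 186 and 178 CPM against 165, 154 and 165 CPM, which do not. Both calls ended with library totals, where Smg5 was at 0.01 and Smg6 at 0.04 with the median of all genes at -0.254, and the call for Smg6 also ended without untagged input 3 (0.16, adjusted p = 0.0538). Smg5 passed the test in neither set alone. By comparison, several decay factors outside the 9 were recovered strongly: Dcp1b by 2.78, Dcp2 by 2.40, Dcp1a by 1.76 and Pnrc1, a decapping cofactor, by 1.70. In that list of 28 genes, 8 were higher, 14 lower and 6 neither, where 29.8% of all genes were higher and 32.2% lower. The lowest were the exon junction genes Rbm8a (-0.91) and Magoh (-0.90), the ATPase gene Ruvbl1 (-0.69) and the release factor gene Gspt2 (-0.66).

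**Figure D3:**
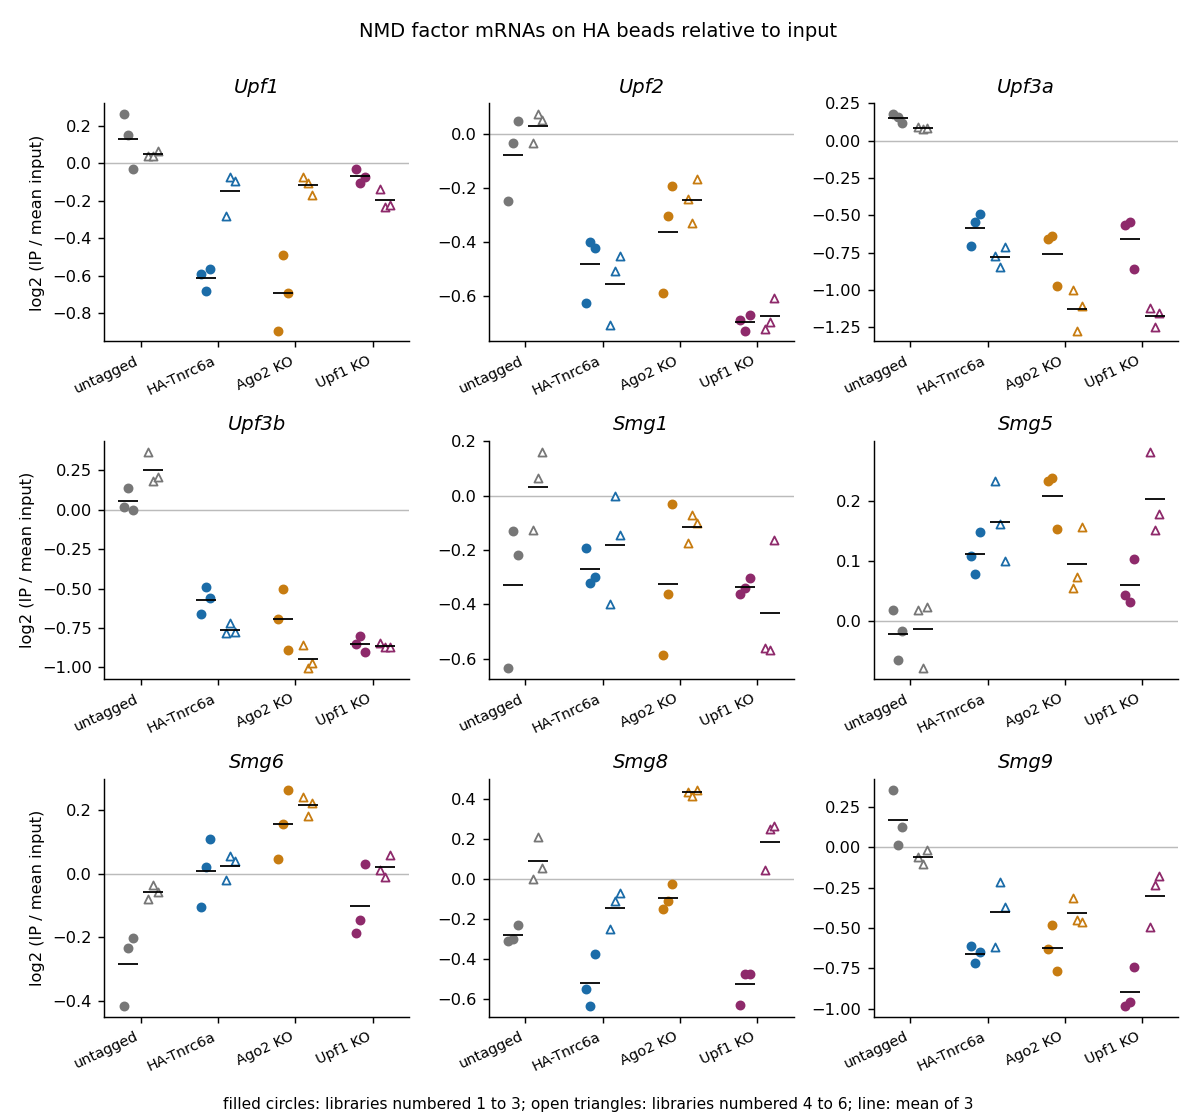
Log2 ratio of the CPM in each IP library to the mean CPM of the 3 inputs of its genotype and set (y axis) by genotype (x axis), with symbols as in the plot of input levels. Upf3a and Upf3b lie below the untagged points in all tagged genotypes, and Smg8 in Ago2-/- cells lies above its HA-Tnrc6a points in both sets.

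The same measure in the Upf1-/- cells used the same untagged libraries as the reference. There 2 of the 9 were higher and 5 lower, among 31.8% of all genes higher and 31.8% lower (63.6% in all; with library totals the share of higher calls fell from 50.0% to 36.4%). Upf3a was at -0.95 ± 0.08, Upf3b at -0.94 ± 0.08, Upf2 at -0.59 ± 0.07 and Smg9 at -0.57 ± 0.12. Smg9 was at -0.97 in the first set and -0.18 in the second, and the second set fitted alone did not pass the test (-0.28, adjusted p = 0.0881). Smg8 was at the background (0.004 ± 0.09, adjusted p = 0.974). Upf1 was at -0.15 ± 0.07 with an adjusted p of 0.0467, and that call ended without any of 17 of the 24 libraries, for example untagged input 3 (-0.13, adjusted p = 0.0884). Smg5 (0.22 ± 0.06, adjusted p = 0.00161) and Smg6 (0.21 ± 0.08, adjusted p = 0.0196) were slightly above the background. Neither gain held without untagged IP 1 (0.13 for Smg5, adjusted p = 0.0559, and 0.07 for Smg6, adjusted p = 0.402), untagged IP 2 (0.11 and 0.12) or untagged IP 3 (0.12 and 0.13), and Smg6 was also lost without untagged input 3 (0.17, adjusted p = 0.0575). Without the 3 libraries furthest from their set the values were 0.11 and 0.078, both short of the threshold. With library totals they turned to -0.037 and -0.053, where the median of all genes moved from -0.0648 to -0.324. Smg1 was at -0.16 ± 0.12 (adjusted p = 0.233), but at -0.33 (adjusted p = 0.00393) without untagged IP 1 and at -0.24 (adjusted p = 0.0283) without Upf1-/- IP 6. Its within-set values were 0.08 in the first set and -0.40 in the second. Smg1 was also below the background in the second set alone (-0.50, adjusted p = 0.00766) and with library totals (-0.42, adjusted p = 0.00564). The same held without the 3 libraries furthest from their set (-0.30, adjusted p = 0.00993).

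In Ago2-/- cells, 3 of the 9 were above the background and 5 below, among 31.5% of all genes above and 33.2% below (64.7% in all). Upf3a (-1.04 ± 0.09), Upf3b (-0.96 ± 0.09), Smg9 (-0.56 ± 0.12), Upf1 (-0.48 ± 0.08) and Upf2 (-0.26 ± 0.08) were below. Smg6 (0.37 ± 0.07, adjusted p = 3.12e-05), Smg8 (0.28 ± 0.08, adjusted p = 0.00142) and Smg5 (0.18 ± 0.06, adjusted p = 0.00922) were above. Fitted alone, neither set put Smg5 past the threshold (adjusted p = 0.0597 and 0.304), and the first set did not put Upf2 (-0.25, adjusted p = 0.157) or Smg8 (0.22, adjusted p = 0.181) past it. Upf2 also missed it between IPs alone (-0.14, adjusted p = 0.0607). Smg1 was at -0.06 ± 0.11 (adjusted p = 0.67), and at -0.18 (adjusted p = 0.0364) in the second set alone. With library totals Smg6 kept its call (0.22), while Smg8 (0.13) and Smg5 (0.03) lost theirs and the median of all genes was -0.221 in place of -0.0683. Upf1 differed between the sets, with -0.82 in the first and -0.14 in the second (adjusted p of the difference = 0.00494).

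**Figure D4:**
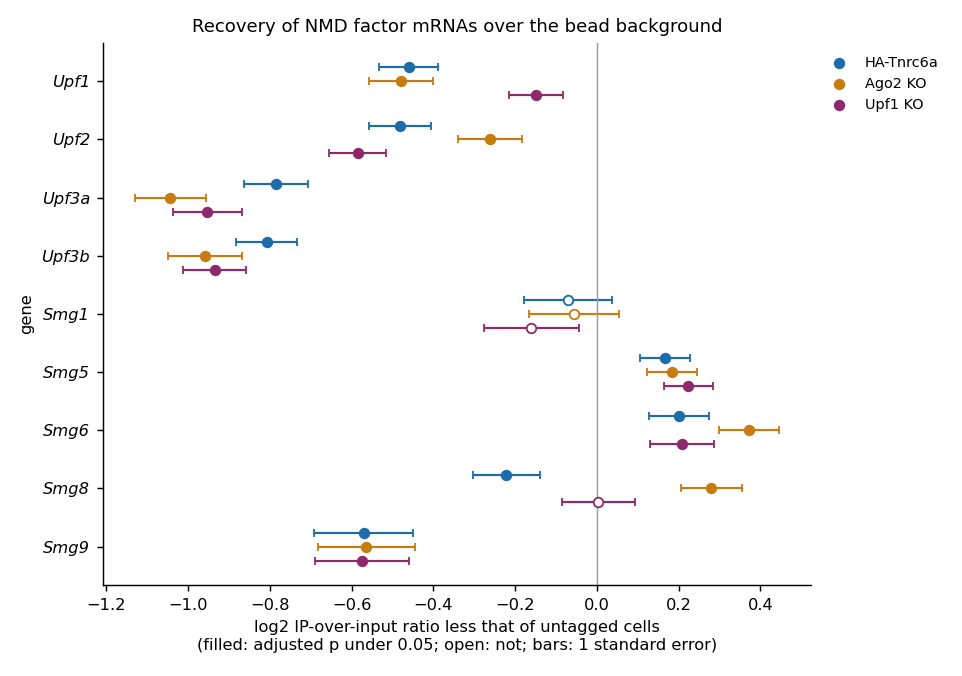
Recovery of each NMD factor mRNA over the bead background (x axis, log2 IP-over-input ratio less that of untagged cells) in HA-Tnrc6a, Ago2-/- and Upf1-/- cells, with bars of 1 standard error and filled points for an adjusted p under 0.05. Upf3a and Upf3b lie between -1.04 and -0.79 in all 3 genotypes, and the small positive values of Smg5 were at 0.01, 0.03 and -0.037 with library totals.

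Whether the knockouts changed recovery was tested directly against HA-Tnrc6a cells. In Upf1-/- cells 1 of the 9 genes passed the test, Upf1 itself, among 2.92% of all genes higher and 1.57% lower (4.49% in all). The split of all calls was not stable, with 65.1% higher as reported and 22.4% under library totals. With TMM kept, it was 47.5% without the filter on low counts and 34% without HA-Tnrc6a input 3. With library number as a block it was 66.6%. Recovery of Upf1 mRNA was higher by 0.30 ± 0.06 (adjusted p = 0.00374). It was 0.63 higher in the first set and -0.03 in the second, and that difference passed the test (adjusted p = 0.0145) as it did for 0.115% of all genes. Without HA-Tnrc6a input 3 the value was 0.22 and missed the threshold (adjusted p = 0.0536), as it did with library totals (0.21, adjusted p = 0.0601). In the IPs, Upf1 mRNA was at 120.4, 114 and 117 CPM in Upf1-/- cells against 51.4, 48.5 and 52.4 CPM in HA-Tnrc6a cells of the first set, and at 126, 118 and 119 CPM against 81.0, 93.7 and 92.2 CPM in the second.

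None of the other 8 genes passed the test of recovery, while Smg5, Smg9, Smg6, Smg1 and Upf2 rose in the IPs as in the lysates. IP levels of Smg5 were 238, 236 and 248 CPM in Upf1-/- cells in the first set and 328, 299.6 and 305 CPM in the second, all above the HA-Tnrc6a IPs given before. Between the IPs alone, Smg5 differed by 0.76, Smg9 by 1.18, Smg6 by 0.69, Smg1 by 0.65 and Upf2 by 0.53 (adjusted p from 1.2e-09 to 1.17e-06). For Smg5 the difference between inputs was 0.75 and that in recovery was 0.05 ± 0.06 (adjusted p = 0.758). Smg6 (-0.01 ± 0.07), Smg9 (-0.02 ± 0.11), Smg1 (-0.10 ± 0.11), Upf2 (-0.12 ± 0.07), Upf3b (-0.14 ± 0.07), Upf3a (-0.18 ± 0.08) and Smg8 (0.21 ± 0.09) likewise did not pass the test (adjusted p from 0.174 to 0.983). Upf3a did without HA-Tnrc6a IP 1 (-0.26, adjusted p = 0.0471) and with library totals (-0.27, adjusted p = 0.0485). A miss of the threshold does not show that recovery was equal. In the list of 28 machinery genes, the decapping cofactor gene Dcp1b was recovered more (0.37 ± 0.10), while Dcp1a (-0.36 ± 0.07) and the decapping enzyme gene Dcp2 (-0.36 ± 0.09) were recovered less. Of the 24 NMD-sensitive transcripts, 2 were recovered more and 6 less, where 2.92% of all genes were recovered more and 1.57% less. Among the 4 that rose most in the inputs, Zfas1 (-0.54 ± 0.09) and Snhg5 (-0.39 ± 0.07) were recovered less, and Ddit3 (-0.24 ± 0.08) and Gadd45b (-0.16 ± 0.10) did not pass the test. These 4 were picked by the input change that the recovery measure subtracts. Their recovery values are therefore not independent of that choice.

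In Ago2-/- cells 2 of the 9 genes were recovered more than from HA-Tnrc6a cells and 1 less, among 9.09% of all genes higher and 12.3% lower (21.3% in all). Smg8 had the clearest change. Its IP levels were 31.9, 32.8 and 34.8 CPM in Ago2-/- cells against 23.7, 22.3 and 26.8 CPM in HA-Tnrc6a cells of the first set, and 64.3, 63.4 and 64.8 CPM against 40.0, 44.1 and 45.2 CPM in the second. The genotypes did not overlap in the IPs, while their inputs differed by 0.01 ± 0.04. Recovery of Smg8 was higher by 0.50 ± 0.07 (1.41-fold, adjusted p = 1.6e-06), by 0.42 in the first set and 0.57 in the second, and 92.9% of the tested genes had a lower value. It passed the test under all 34 alternatives tried, from 0.40 to 0.58. Upf3a was recovered less (-0.26 ± 0.08, adjusted p = 0.0129), a difference of -0.06 between the IPs alone (adjusted p = 0.501) and a call that the first set alone did not give (-0.20, adjusted p = 0.4). Upf2 was recovered slightly more (0.21 ± 0.08, adjusted p = 0.0492), and that call ended without any of 17 of the 24 libraries, for example Ago2-/- IP 3 (0.17, adjusted p = 0.131). Smg6 missed the threshold (0.16 ± 0.07, adjusted p = 0.0703) but passed without Ago2-/- IP 1 (0.19), HA-Tnrc6a IP 3 (0.19) or Ago2-/- input 3 (0.18). Upf3b (-0.16 ± 0.08, adjusted p = 0.18) also missed it, as did Upf1 (-0.03), Smg5 (0.01), Smg1 (0.01) and Smg9 (0.00064), with adjusted p from 0.851 to 0.998. Outside the 9, Dcp2 was recovered less from Ago2-/- cells (-0.86 ± 0.09).

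Patterns over genotype, fraction and set were compared across 16 group means for 10839 genes, as a description with no test. These points share libraries' depth and the 2 sets. The genes closest to Upf1 were Rpusd3 (Pearson r = 0.95), Ptprn (0.948), Cntn2 (0.929), Icam1 (0.923) and Gm44280 (0.916), and the closest of the other NMD factors was Smg9 (0.881, rank 27). The genes closest to Smg5 were Gprc5a (0.96), Tsr2 (0.953), Arc (0.953), Smg6 (0.953) and 9930104L06Rik (0.943). Smg6 was thus the only one of the NMD factors among the 5 nearest genes of either. Upf3a (-0.306) and Upf3b (-0.414) ran against Smg5.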

How the data were processed

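RNA was measured in 48 RIP-seq libraries made with a stranded total RNA kit, per the labels' protocols. The authors deposited a table of raw counts per gene and library, with no normalization, and a gene length (an other unit, in bases, per the file headers). STAR 2.7.3a, bcl2fastq 2.20, GRCm38 and mm10 are named in the submitters' processing notes. The counter, annotation and strand setting are not given in the sources used here. A further 48 per-sample columns, headed RPKM, were not used.

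Count columns show a genotype and fraction but not which sample, and were mapped to those groups. Counts were fitted with edgeR 4.0.16 (limma 3.58.1, R 4.3.3): TMM scaling, genes kept by filterByExpr (minimum count 10), 1 coefficient per genotype, fraction and set, robust quasi-likelihood fit, two-sided F-test, and Benjamini-Hochberg adjustment over all genes tested with a threshold of 0.05. Each model held the libraries of the genotypes and fractions compared, and the contrast is the mean of both sets' contrasts. The standard error is the log2 fold change divided by the square root of F. CPM values are counts scaled by TMM over all 48 libraries. Scripts were tested on simulated data.

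The 9 genes and the gene lists were chosen with earlier results of these data known. All 9 are named in each comparison, and Tnrc6a and Ago2 serve as partial checks of the labels. Of the other lists, the text names those past the threshold whose changes were largest, at most 4 in a direction. The result of 1 gene in these lists is not reported here. For Upf1 and Smg5, the 5 genes with the highest Pearson r are named, among genes with an average log2 CPM of at least 3. Alternatives were RLE size factors, library totals, no filter on low counts, DESeq2 1.42.0, each set alone, all 48 libraries in 1 fit, a replicate block, IPs without inputs and leaving out each library. Leaving out the 3 libraries furthest from their set was chosen after seeing the data.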

Additional observations from a re-analysis of the deposited data

Results flagged for a closer look

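In 72 groups of 6 libraries (9 genes, 8 groups), 3 held a library far from the others. The rule would mark about 1 group in 20 by chance if all 6 values came from 1 normal distribution. These groups pool 2 sets that can differ in level, as for Upf1 in HA-Tnrc6a inputs (means of 77.6 and 98.5 CPM). That rate therefore does not apply here. Upf3a was at 64.4 CPM in untagged input 1, with the nearest library at 52.3 CPM. Smg1 was at 149 CPM in Upf1-/- IP 6, with the nearest at 113 CPM. Smg9 was at 18.0 CPM in untagged IP 1, with the nearest at 15.3 CPM.

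In 3 results the sets of libraries numbered 1 to 3 and 4 to 6 differed by an interaction test at an adjusted p under 0.05. The share of all genes was counted for the last of them alone (0.115%). The change of Upf2 in Upf1-/- against Ago2-/- inputs was 0.22 larger (log2) in the second set (adjusted p = 0.0158). The sets differed there for 5 of the 28 machinery genes and 10 of the 24 NMD-sensitive transcripts as well. Recovery of Upf1 from Ago2-/- cells over untagged cells was 0.69 higher in the second set (adjusted p = 0.00494). In that comparison the sets also differed for 6 of the 28 and 8 of the 24. Recovery of Upf1 from Upf1-/- against HA-Tnrc6a cells was lower in the second set, with a difference of -0.66 (adjusted p = 0.0145).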

How the results depend on the processing

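The counts of 8 higher and 1 lower NMD factor in Upf1-/- inputs stayed at 7 to 8 and 1 under all 21 alternatives. Elsewhere counts moved as follows, and the cause was not tested except where fewer libraries entered by construction. In Ago2-/- against HA-Tnrc6a inputs, 3382 genes passed in the first set alone, 3902 with all 48 libraries in 1 fit and 6065 as reported; of the 9, the first set alone gave 0 higher and the second alone 1 lower. HA-Tnrc6a against untagged inputs gave 652 genes in the first set and 1937 in the fit of 48 (2990 as reported), 1 lower member with library totals, either set or the fit of 48, 2 higher in the second set, and 1 to 2 lower when a library was left out. In recovery over untagged cells, HA-Tnrc6a had 0 higher members with library totals, 1 in the first set, 0 in the second and 1 to 2 when a library was left out. Ago2-/- had 1 with library totals and 1 in the first set. Upf1-/- had 1 with RLE, DESeq2, the second set or the fit of 48, 0 with library totals, the first set or without the 3 furthest libraries, 0 to 2 when a library was left out, and 5 higher and 3 lower between IPs alone.

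With library totals, Upf1-/- recovery over untagged cells turned to -0.037 for Smg5, -0.053 for Smg6 and -0.26 for Smg8. IPs alone do not subtract the lysate level: there Upf1 was at 0.25, Upf2 at 0.092, Smg1 at 0.65, Smg8 at -0.22 and Smg9 at 0.47. Against HA-Tnrc6a, IPs alone gave Upf2 0.53, Smg1 0.65, Smg6 0.69 and Smg9 1.18, with 8805 genes and 6 higher members. That recovery comparison gave 896 genes as reported, 162 in the first set, 384 in the second and 591 to 957 when a library was left out; 0 higher members with library totals or in the second set, 1 lower with library totals, and 0 to 1 higher and 0 to 1 lower when a library was left out. Ago2-/- recovery against HA-Tnrc6a gave 1623 genes in the first set and 7482 between IPs alone (4267 as reported), 1 higher member with RLE, library totals, DESeq2, the first set or without the 3 furthest libraries, 4 between IPs alone, 1 to 3 when a library was left out, and 0 lower in the first set or between IPs alone.

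Shared library numbers were not taken as pairs, since not every pair correlated over 0.1. Deviations from group means correlated at 0.0679 on average by number, and at 0.104 between inputs and IPs, over 0.1 in 9 of 24 such pairs. Among these were untagged libraries 1, 2 and 3 (0.509, 0.263 and 0.317). With number as a block, Upf1-/- against HA-Tnrc6a gave 11541 genes in inputs and 1067 in recovery, and no call of the 9 genes changed in any comparison. That block gave each number 1 effect shared by all genotypes and fractions. It did not pair an input with the IP of its own genotype, so the effect of such pairing on recovery was not tested.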
